A study of Mus musculus with 43 samples.

Results

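A set of 11329 regions of the mouse genome carried an accessible-chromatin peak in every one of 18 ATAC-seq libraries of intestinal organoids, whatever their treatment. They were found by merging all peaks on chromosomes 1 to 19 that touched or overlapped, which gave 59937 regions, and were chosen by the peak calls themselves: a region was kept if a peak of each list overlapped it by at least 1 bp. The shared regions are therefore 18.9% of all merged regions, and their presence in all libraries is the choice itself and not a finding. All organoids were primary cultures from wild-type C57BL/6 mice, and each of the 6 groups had 3 libraries. Organoids that were not irradiated were treated for 24 h, starting on day 6, with vehicle or with TGFB1 at 2 ng/mL, and were collected on day 7 (D7 non-IR). Others were irradiated with 4 Gy on day 4, given the same treatments and collected on day 7 (D7 IR) or on day 11 (D11). At D11 the 24 h treatment was over, so TGFB1 at D11 stands for earlier treatment. Organoids were dissociated into single cells before the assay, so a library averages over all cell types of the culture. The labels do not say whether the 3 libraries of a group came from separate cultures or mice, so p-values measure only the spread between these libraries.

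ATAC-seq reads accessible chromatin by letting the transposase Tn5 insert adapters where DNA is not wrapped by nucleosomes or held in compact chromatin. Sites that are open in almost every state of a tissue are known to include many promoters of widely used genes and sites bound by the insulator protein CTCF, while enhancers tend to open with cell identity or stimulus. TGFB1 is a secreted cytokine whose receptors act through SMAD proteins, which bind DNA beside other factors, and in the gut epithelium it is known for restraining proliferation and for roles in repair. Ionising radiation breaks DNA and depletes cycling crypt cells, which regrow over the following days.

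The measured value is the score of a peak, the −log10 of its q-value as the authors' peak caller gave it for that library. A region's score in a library is the highest score of its peaks there. These scores are the authors' own and describe peaks within a list, since they rise with sequencing depth. The lists held 20452 to 49291 peaks, all windows of 601 bp. The read depth behind them is not analysed here. Epithelial identity was checked in the RNA libraries of the same 6 groups, where 14 of 15 epithelial markers exceeded 1 FPKM in all 18 libraries and 6 of 7 mesenchymal and endothelial markers stayed below 1 FPKM in all of them. Of 5 immune markers, 3 stayed below 1 FPKM in all 18 libraries. Of the others, Cd68 exceeded 1 FPKM in all 18 libraries and reached 22.6 FPKM, and Itgam reached 1.86 FPKM. Acta2, the mesenchymal marker that did not stay below 1 FPKM, reached 4.14 FPKM. Immune or mesenchymal cells are therefore not excluded by this check. In bulk samples, more cells with an open site and a site more open in each cell cannot be told apart.

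Occupancy was bimodal. The commonest class of region, with 12530 members, had a peak in 1 list, and the second commonest was the class with a peak in all 18. Between them, regions with a peak in 9 lists numbered 1510 and those in 17 lists numbered 2440. The median score over the lists with a peak was 4.07 for regions in 1 list, 10.2 for those in 17 lists and 18.6 for the shared regions. Among the 2440 regions that missed 1 list, the missing list was most often D7 IR TGFB1 replicate 3 (534 regions), D7 IR TGFB1 replicate 2 (503) or D7 IR vehicle replicate 1 (437). These were also the 3 shortest lists, with 20522, 19907 and 22567 peaks on chromosomes 1 to 19.

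**Figure D1:**
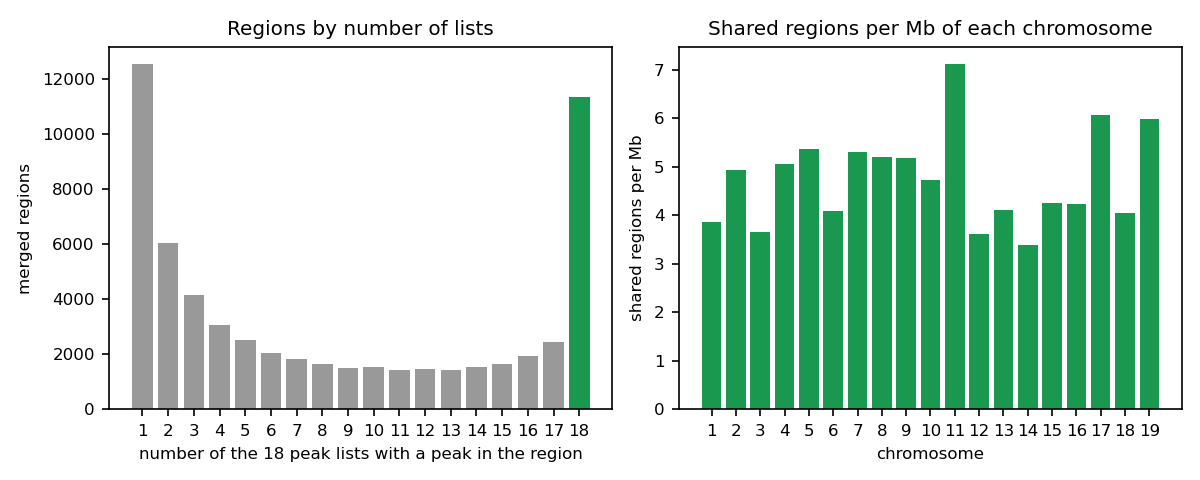
The left panel counts merged regions by the number of the 18 lists with a peak in them, with the 11329 shared regions in green. The right panel gives shared regions per Mb of each chromosome, from 3.39 on chromosome 14 to 7.12 on chromosome 11.

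The edge of the set was set by the weakest library of each region. Just inside it, chr6:99055689-99056514 had its lowest score of 1.37 in D7 IR vehicle replicate 2, and chr3:59612819-59613535 and chr7:52391468-52392210 had theirs of 1.39 in D11 TGFB1 replicate 3. The lowest score in any list was 1.303. Just outside it, chr1:170589587-170590295 had a median score of 26.3 and lacked a peak in D7 IR TGFB1 replicate 2 only. The other 2 highest of the 17-list regions were chr16:61055897-61056557, with a median of 25.7 and no peak in D7 IR vehicle replicate 1, and chr2:175467859-175468527, with a median of 24.4 and no peak in D7 IR TGFB1 replicate 2. The medians of these named 17-list regions lay between the median (18.6) and the upper quartile (27.4) of the shared regions. All 2440 regions in 17 lists had a median of 10.2, so these were the strongest of a mostly weaker class.

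The shared regions had a median width of 798 bp (quartiles 716 and 1080, range 622 to 2643), against 675 bp for all other regions. Since every peak is 601 bp wide and more lists give more peaks to merge, the width follows in part from the rule. Together they covered 10.5 Mb, which was 0.435% of the span between the first and last peaks of the 19 chromosomes. The summits of a region's highest peaks in the 18 libraries lay within a span of 136 bp at the median (quartiles 99 and 213). In 6912 regions (61.0%) every list had exactly 1 peak, and 42 regions held several peaks in all 18 lists. The widest was chr1:13362291-13364933 with 2643 bp, followed by chr9:72377838-72380329 with 2492 bp and chr5:66154184-66156670 with 2487 bp. Of these, chr5:66154184-66156670 had several peaks in all 18 lists and chr9:72377838-72380329 in 17, while chr1:13362291-13364933 had them in 6. Regions over 1000 bp had a median score of 18.5 and those up to 1000 bp one of 18.6, while the 100 highest regions had a median width of 731.5 bp against 799 bp for the others.

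Along the genome the shared regions were spread over all 19 chromosomes at 4.69 per Mb. Chromosome 11 was the densest with 7.12 per Mb (846 regions), then chromosome 17 with 6.08 and chromosome 19 with 5.98, and chromosome 14 was the sparsest with 3.39 (414 regions). Shared regions made up a similar part of all merged regions on each chromosome, from 16.9% on chromosome 14 to 20.6% on chromosome 7. The gap between neighbours had a median of 68.4 kb. Of 11310 gaps, 1038 (9.18%) were under 10 kb and 486 were over 1 Mb, whereas 44.5% of the gaps between all merged regions were under 10 kb. Their density varied along the chromosomes: 356 of 2481 windows of 1 Mb held at least 10 and together 4898 of the regions (43.2%), whereas 577 windows held none. The densest window, at 115 to 116 Mb of chromosome 11, held 34.

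Members at the top of the score order were narrow. The highest was chr5:60433897-60434531, 635 bp wide, which held first place in each of the 18 libraries. Its score was 235, 229.5 and 238 in D7 non-IR vehicle, 233, 239 and 229.7 in D7 non-IR TGFB1, 210, 240 and 206 in D7 IR vehicle, 204, 228.7 and 215 in D7 IR TGFB1, 238, 189 and 240 in D11 vehicle, and 238, 250 and 221 in D11 TGFB1. The D7 IR TGFB1 libraries lay below both non-irradiated groups, by less than 1 at the nearest libraries, and all other pairs of groups overlapped. The other 9 of the 10 highest regions had median scores of 77.5 to 124 and were 622 to 673 bp wide, with summits within 21 to 72 bp. They were chr6:49186202-49186846, chr9:110183487-110184128, chr10:84488461-84489100, chr4:121870593-121871220, chr4:122132227-122132848, chr11:121843437-121844109, chr1:104524534-104525155, chr7:137977708-137978365 and chr5:152536880-152537512. Of these 10, chr11:121843437-121844109 and chr5:152536880-152537512 held the last peak of their chromosome. A shared region held the last peak on 7 of the 19 chromosomes. Of the shared regions, 132 were among the 1132 highest of every library and 3215 among those of at least 1.

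Each region's scores were set against the level of the library, taken as the median over these same shared regions. Across the 18 libraries, the slope of a region's log2 score on the library's log2 median score was 0.98 at the median, with 5th and 95th percentiles of 0.59 and 1.38 and a lowest value of −0.68. A slope of 1 means that a region moves in step with its library. Since the level is the median of these same regions, a typical slope near 1 follows from the definition. The 100 highest regions had a median slope of 0.69. In 2 of the 11329 regions the highest score was less than 1.5 times the lowest. These were chr5:60433897-60434531, with a slope of 0.060, and chr10:84488461-84489100, with scores between 79.7 and 97.2 and a slope of 0.041. For all shared regions, the highest score was 4.95 times the lowest at the median. In the order of scores, chr2:3429850-3430620 was among the steadiest, with scores of 22.7 to 66.9 and an SD of 0.11 in normalised log2 score. The least steady were chr8:86721984-86722851 (SD 1.04) and chr10:54608013-54608722 (SD 1.03), against a median SD of 0.38 over all shared regions.

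The level of the shared regions differed between groups by more than 2-fold. The median score over the 11329 regions was 20.3, 19.9 and 21.9 in the D7 non-IR vehicle libraries and 25.04, 19.9 and 19.2 with TGFB1. It was 10.7, 14.1 and 12.8 in D7 IR vehicle and 13.3, 12.6 and 11.2 with TGFB1. At D11 it was 37.9, 32.7 and 26.9 with vehicle and 24.0, 23.1 and 14.7 with TGFB1. Vehicle and TGFB1 libraries overlapped at D7, with and without irradiation, and did not overlap at D11. The groups of D7 IR vehicle and D7 non-IR vehicle did not overlap, nor did D11 vehicle and D7 IR vehicle. As group means the values were 20.7 ± 1.04 and 21.4 ± 3.21 (D7 non-IR vehicle and TGFB1), 12.5 ± 1.70 and 12.4 ± 1.04 (D7 IR) and 32.5 ± 5.52 and 20.6 ± 5.13 (D11), each SD over n = 3. For D11 TGFB1, irradiation and day, the two-sided exact permutation test gave p = 0.1, the smallest that 3 against 3 libraries allow, and 0.3 after Benjamini-Hochberg adjustment over 15 tests of library measures. For TGFB1 at D7 the exact p was 1 without irradiation and 0.9 with it.

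**Figure D2:**
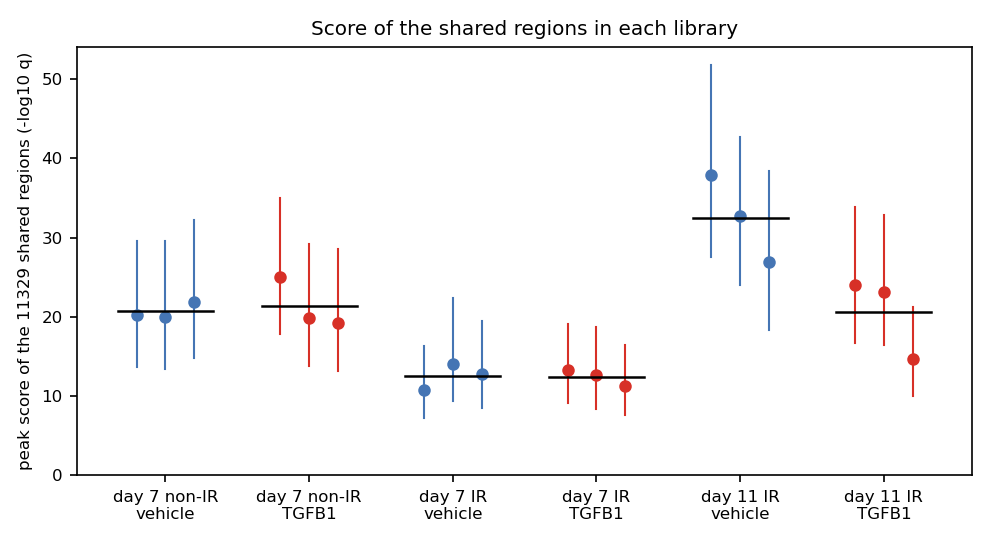
Each point is the median peak score of the 11329 shared regions in 1 library and its vertical line spans the quartiles, with the group mean as a black bar. The 3 D11 vehicle libraries sit at 26.9 to 37.9, above the 3 of D7 IR vehicle at 10.7 to 14.1.

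How much of a list the shared regions held moved the other way. They took 42.8 to 46.3% of the peaks in D7 non-IR vehicle, 33.7 to 44.7% with TGFB1, 50.6 to 55.1% in D7 IR vehicle, 45.8 to 62.2% with TGFB1, 27.2 to 40.9% in D11 vehicle and 33.8 to 42.6% with TGFB1. The irradiated and non-irradiated D7 vehicle groups did not overlap (52.5 ± 2.32% against 44.5 ± 1.72%, SD, n = 3), with an exact permutation p of 0.1 and 0.3 after adjustment over the 15 tests. Neither did D11 and D7 IR vehicle (32.8 ± 7.17% against 52.5 ± 2.32%), with the same p-values. By the rule every list has a peak in each shared region, and the number of its peaks there varied little, from 12040 to 13327. This share therefore falls as a list grows longer, and its tests compare mainly the lengths of the lists. The longest list, D11 vehicle replicate 2 with 48078 peaks, had the lowest share. Peaks per shared region lay between 1.06 and 1.18 in all libraries, and no comparison of it was free of overlap.

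Whether a level reflects the library or its chromatin cannot be read from the scores, so regions were compared after each library's log2 scores were brought to 1 common distribution (quantile normalisation) over all regions with a peak in every library of the comparison. A shift is thus a change of place in the order of regions, and limma with Benjamini-Hochberg adjustment over all regions tested was used, with calls at an adjusted p under 0.05. Regions without a peak in some library of the comparison were not tested, so the full gain or loss of a peak is not covered. Without scaling, the median difference over all regions tested was −0.61 (log2) for TGFB1 at D11, −0.64 for irradiation and 1.24 for day, and changes are given relative to that shift. For TGFB1 at D7 it was 0.05 without and −0.07 with irradiation. Replicate libraries correlated over the 11329 log2 scores with Pearson's r of 0.71 to 0.85, lowest in D7 IR TGFB1 and highest in D11 vehicle. Libraries of different groups had r of 0.61 to 0.81, so the ranges overlapped. D7 non-IR vehicle and D11 vehicle libraries correlated at 0.77 to 0.81, against 0.75 to 0.78 between D7 IR vehicle replicates. D7 IR TGFB1 replicates had 0.71 to 0.72, and D7 IR TGFB1 and D11 vehicle libraries 0.68 to 0.72.

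In non-irradiated organoids, few regions were called for TGFB1. Of the shared regions 15 rose and 11 fell (0.230%), against 0.244% called among all 17588 regions tested (0.136% higher and 0.108% lower). Shared regions were thus called about as often as all regions tested. Groups did not overlap in 792 shared regions with higher and 794 with lower values, together 14.0% of them, against 15.0% of all regions tested (7.42 and 7.57%). By far the most of the shared regions were not called. An unadjusted limma p under 0.05 was reached by 1079 shared regions. That number was not counted over all regions tested, and some regions reach it without any change, so it is not read as a response. At chr12:33905069-33906007, scores were 2.61, 5.28 and 4.90 with vehicle and 22.3, 16.0 and 11.5 with TGFB1. All 3 TGFB1 libraries were above all 3 vehicle libraries, and the normalised score rose by 1.87 ± 0.40 (log2, SE; limma adjusted p = 0.025). At chr6:24496443-24497128 they were 9.26, 2.96 and 6.40 with vehicle and 20.6, 23.6 and 16.9 with TGFB1, without overlap, a rise of 1.76. The other 3 largest rises were 1.69 at chr13:63173555-63174268, 1.69 at chr3:107032611-107034096 and 1.68 at chr2:117703238-117704137. Of the regions that fell, chr4:141626567-141627646 had scores of 15.5, 6.68 and 13.1 with vehicle and 5.55, 3.27 and 2.30 with TGFB1. Its groups did not overlap and the change was −1.80 ± 0.44 (adjusted p = 0.041, limma). The next were chr3:61140006-61140739 (−1.50), chr3:157245866-157246587 (−1.43), chr10:125375925-125376653 (−1.38) and chr8:37611980-37612670 (−1.30). The count rested on single libraries. Without TGFB1 replicate 1 no shared region was called by limma, and 945 had an unadjusted p under 0.05, again with no count over all regions. The number called was 3 without TGFB1 replicate 3, 16 without TGFB1 replicate 2, 5 without vehicle replicate 1 and 14 without vehicle replicate 2. None of these 10 regions kept its call under all 14 alternatives tried: each lost it without TGFB1 replicate 1 and without TGFB1 replicate 3. Without scaling between libraries, 18 shared regions rose and 2 fell, against 34 and 6 of all 17588 regions tested.

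In irradiated organoids at D7, more regions were called for TGFB1. Of the shared regions 134 rose and 203 fell (2.97%). Among all 11953 regions tested, nearly all of which were shared regions, 2.86% were called (1.15% higher and 1.72% lower). Groups did not overlap in 1256 shared regions with higher and 1264 with lower values, against 21.9% of all regions (10.9 and 11.1%). The largest fall was at chr4:141549654-141550412. Its scores were 33.04, 78.6 and 46.6 with vehicle and 12.0, 8.72 and 9.88 with TGFB1, without overlap. The normalised score fell by 2.19 on the log2 scale, with an SE of 0.25 and a limma adjusted p of 5.0e-09. Without irradiation the same region had 64.5, 67.3 and 79.5 with vehicle and 55.2, 55.8 and 55.1 with TGFB1. Those groups did not overlap in raw score either, but their difference was −0.33 with an adjusted p of 0.27 (limma), and the difference between both TGFB1 shifts was itself −1.67 ± 0.26 (adjusted p = 0.00021, limma interaction term). At chr7:87219811-87220557 scores were 11.8, 16.0 and 14.8 with vehicle and 2.69, 3.40 and 3.33 with TGFB1, a change of −2.12 with no overlap. At chr15:99089971-99090776 they were 19.7, 30.5 and 21.1 against 7.14, 5.398 and 4.31, a change of −2.01 with no overlap. The next falls were −1.86 at chr3:28679818-28680894 and −1.79 at chr8:70956272-70957163.

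Rises in the same comparison were led by chr11:80196397-80197131. Its scores were 1.82, 4.39 and 4.82 with vehicle and 13.2, 13.0 and 13.8 with TGFB1, without overlap, and the normalised score rose by 2.01 ± 0.42 (limma adjusted p = 0.0029). At chr6:51670415-51671258 they were 4.13, 4.65 and 4.82 with vehicle and 14.3, 21.1 and 14.1 with TGFB1, a rise of 1.88 without overlap. The others were chr3:61147801-61148576 (1.87), chr8:35118604-35119453 (1.76) and chr5:115776707-115777484 (1.72). Called regions sat high in the score order: the median of their within-library percentile was 61.8 for those that rose and 69.9 for those that fell, against 47.5 for the rest. With the regions put in 4 equal groups by that percentile, the number called was 36 in the lowest group and 142 in the highest. The median SD of normalised score over the 18 libraries was 0.49 in the lowest group and 0.27 in the highest. The part of this spread in the counts was not tested. With each library centred on its median in place of quantile normalisation, 147 rose and 541 fell, and without scaling 59 rose and 275 fell. Of all 11953 regions tested, 5.83% were called with median centring and 2.84% without scaling. The number called was 92, 120 and 88 without vehicle replicates 1, 2 and 3, and 198 and 169 without TGFB1 replicates 2 and 3. Of the 10 named regions, chr3:61147801-61148576 lost its call without TGFB1 replicate 1 (adjusted p = 0.056), chr8:35118604-35119453 without vehicle replicate 2 (0.10), and chr5:115776707-115777484 without vehicle replicate 1 (0.086) or TGFB1 replicate 2 (0.0999), each by limma, while the other 7 kept theirs under all alternatives tried.

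At D11, 233 shared regions rose with TGFB1 and 240 fell, against 4.73% called among all 19347 regions tested (3.01% higher and 1.72% lower). Groups did not overlap in 1155 shared regions with higher and 1525 with lower values, against 24.7% of all regions (12.6 and 12.1%). The share called was 4.18% among shared regions and 5.51% among the 8018 others. Among the falls, chr4:101347215-101347991 had scores of 45.5, 48.0 and 53.1 with vehicle and 3.38, 14.7 and 5.23 with TGFB1. Its groups were far apart, and the change was −2.39 ± 0.38 (limma adjusted p = 0.00069). At chr5:135565382-135566081 scores were 49.2, 32.3 and 31.0 with vehicle and 7.05, 7.09 and 5.78 with TGFB1, a change of −1.88 without overlap. Further falls were −1.98 at chr5:130740229-130741058, −1.98 at chr19:44099160-44099959 and −1.97 at chr1:58834270-58835029. Some regions rose although the level of the whole library was lower with TGFB1. At chr3:154359179-154360102 scores were 8.79, 11.3 and 6.04 with vehicle and 21.5, 26.1 and 26.5 with TGFB1, and at chr6:142754580-142755551 they were 6.99, 7.99 and 4.69 against 16.7, 18.1 and 21.3. Neither region's groups overlapped, and the normalised scores rose by 2.10 ± 0.32 and 2.07 ± 0.36 (adjusted p = 0.00026 and 0.0011, limma). The other rises were 2.05 at chr11:8368409-8369267, 1.85 at chr1:165492260-165492986 and 1.81 at chr8:86721984-86722851. At chr11:8368409-8369267 and chr8:86721984-86722851 the raw scores of the groups overlapped and only the normalised ones did not. Without scaling 7 shared regions rose and 1816 fell, and of all 19347 regions tested 64 rose and 2468 fell (13.1%). With normalisation over the shared regions only, 295 rose and 172 fell. The number called was 138, 131 and 190 without vehicle replicates 1, 2 and 3. Of the 10 named regions, chr8:86721984-86722851 lost its call without scaling (adjusted p = 0.071, limma) and the other 9 kept theirs under all 14 alternatives.

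**Figure D3:**
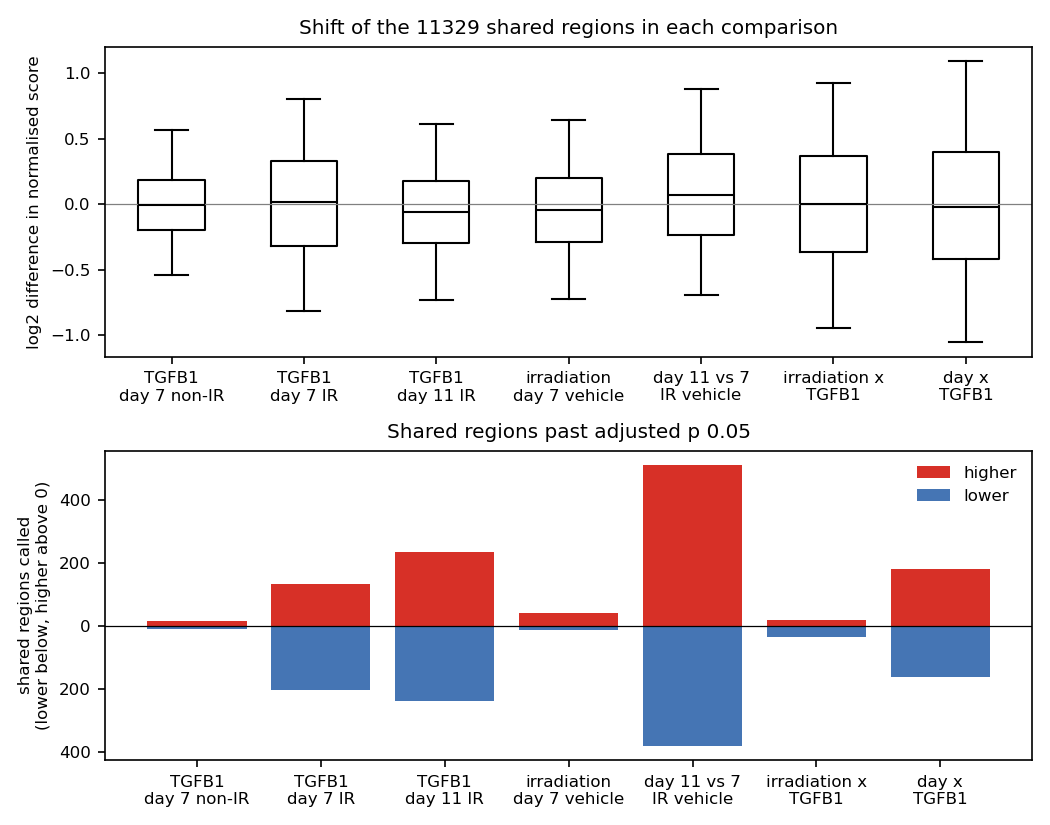
Top, the log2 difference in normalised score of the 11329 shared regions in each comparison as boxes of the quartiles with whiskers at the 5th and 95th percentiles. Bottom, the number called by limma at an adjusted p under 0.05, from 26 for TGFB1 in D7 non-IR to 894 for day.

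Across the 3 TGFB1 comparisons, which have no library in common, few regions were called in more than 1. Of the 26 called in D7 non-IR, 3 were also called in D7 IR (11.5%, against 2.97% called among all shared regions there) and 7 at D11 (26.9%, against 4.18%), all in the same direction. Between D7 IR and D11, 17 were called in both, 9 of them in the same direction. These were 5.04% of the 337 called in D7 IR, against the 4.18% called at D11 among all shared regions, and 3.59% of the 473, against 2.97%. None of these shares was tested. Over all 11329 regions, which are not independent of each other, Pearson's r of the shifts was 0.09 between D7 non-IR and D7 IR, 0.22 between D7 non-IR and D11, and −0.02 between D7 IR and D11. A single region, chr3:107032611-107034096, was called higher in all 3, and none was called lower in all 3. It is 1486 bp wide, with several peaks in 7 of the lists. Its scores in D7 non-IR were 6.42, 6.48 and 7.03 with vehicle and 33.5, 17.3 and 19.9 with TGFB1. In D7 IR they were 1.76, 7.99 and 6.93 against 11.8, 15.9 and 14.4, and at D11 10.2, 10.9 and 7.27 against 21.9, 20.6 and 14.5. TGFB1 libraries were above vehicle libraries without overlap in each condition, with rises of 1.69 (limma adjusted p = 0.013), 1.64 (0.019) and 1.58 (0.0033). The D7 non-IR call was lost without TGFB1 replicate 1 (adjusted p = 0.16, limma) or 3 (0.058), and the D7 IR call without vehicle replicate 1 (0.19) or TGFB1 replicate 2 (0.074) or 3 (0.080). No single library decided the D11 call, which was lost without scaling (adjusted p = 0.10).

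**Figure D4:**
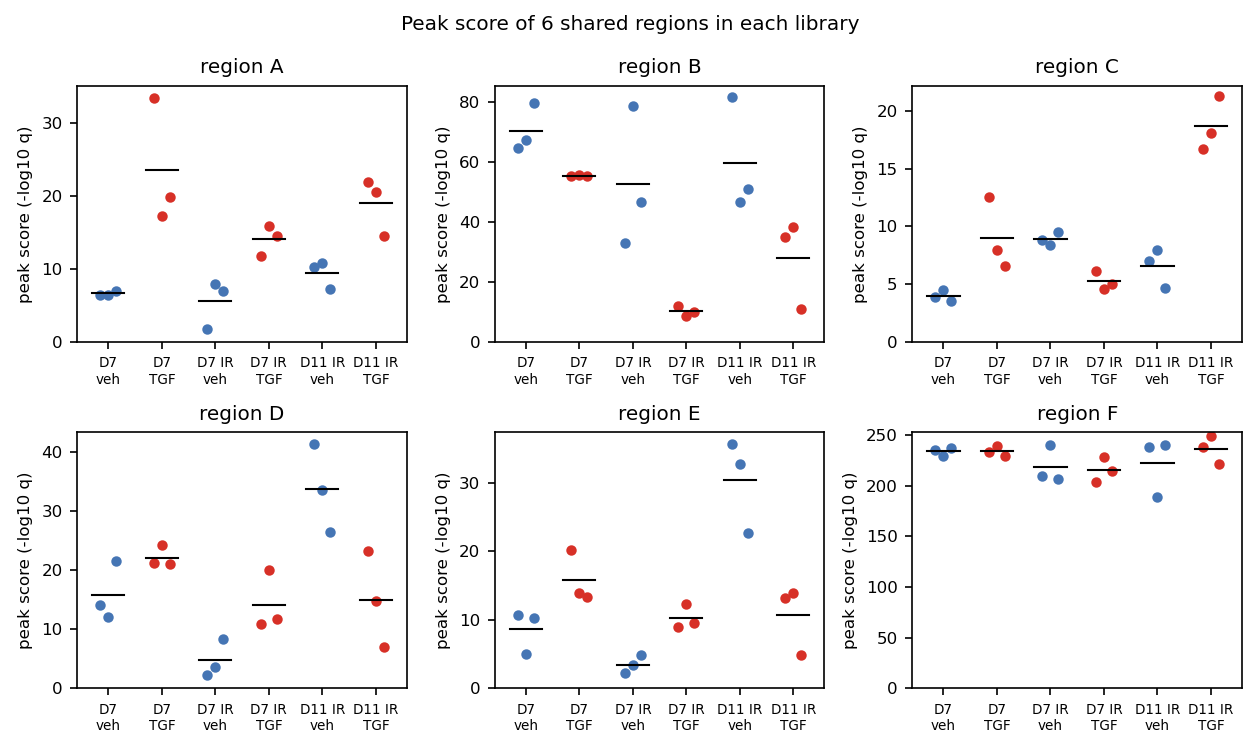
Peak score of 6 shared regions in each library (points; blue vehicle, red TGFB1; black bars, group means): A chr3:107032611-107034096, B chr4:141549654-141550412, C chr6:142754580-142755551, D chr5:115776707-115777484, E chr8:97226368-97228408 and F chr5:60433897-60434531. TGFB1 libraries lie above vehicle libraries in all 3 conditions of A, and in F all groups lie between 189 and 250.

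For irradiation itself, compared in D7 vehicle libraries, few regions were called. Of the shared regions 41 rose and 15 fell (0.494%), near the 0.454% called among all 14553 regions tested (0.344% higher and 0.11% lower). Groups did not overlap in 827 shared regions with higher and 1134 with lower values, against 17.3% of all regions (8.47 and 8.86%). At chr9:62980451-62981125 scores were 32.2, 32.8 and 30.2 without irradiation and 2.96, 9.16 and 5.90 with it. The groups were far apart, and the change was −1.94 ± 0.34 (limma adjusted p = 0.0013). D7 IR TGFB1 libraries had 19.999, 12.5 and 16.3 there, and D11 vehicle had 41.8, 42.2 and 41.5. At chr19:10351593-10352909 scores were 35.1, 40.1 and 42.2 against 5.78, 12.7 and 12.6, a change of −1.37 without overlap. Other falls were −1.40 at chr12:84972723-84973511, −1.35 at chr12:55304531-55305226 and −1.31 at chr2:25127559-25128305. The largest rise, 1.81 ± 0.36 (limma adjusted p = 0.0061), was at chr13:59662637-59663532. Its scores were 6.35, 7.93 and 6.06 without irradiation and 12.4, 16.6 and 17.3 with it, without overlap, although the median of the shared regions was lower with irradiation. Further rises were 1.75 at chr12:33905069-33906007, 1.70 at chr6:142754580-142755551, 1.66 at chr15:94459145-94459930 and 1.64 at chr8:127795130-127795816. The median width was 671 bp for regions that rose and 708 bp for those that fell, against 799 bp for regions not called, and called regions had a lower median width than the others in each of the other 4 comparisons as well. The number called was 20, 22 and 11 without the non-irradiated replicates 1, 2 and 3 and 18 without the irradiated replicate 1. Of the 10 named regions, only chr9:62980451-62981125 kept its call under all 14 alternatives, and each of the other 9 lost it without the non-irradiated replicate 3, where chr13:59662637-59663532 had an adjusted p of 0.0504 (limma). With median centring 73 shared regions rose and 11 fell, against 0.742% called among all regions tested. Without scaling 12 rose and 4673 fell, and of all 14553 regions tested 21 rose and 5133 fell (35.4%). With all 18 libraries normalised and fitted together 30 rose and 32 fell.

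The comparison of D11 with D7 gave the largest count. All its libraries came from irradiated organoids, and there was no non-irradiated group at D11. Age of the culture, time since irradiation and time since the vehicle treatment therefore cannot be told apart. Between D7 IR vehicle and D11 vehicle, 512 shared regions rose and 382 fell, against 7.18% called among all 15204 regions tested (3.49% higher and 3.69% lower) and 7.89% among shared regions. Groups did not overlap in 1909 shared regions with higher and 1390 with lower values, against 28.1% of all regions (14.0 and 14.1%). At chr17:46919293-46920435 scores were 5.45, 3.48 and 4.37 at D7 and 48.3, 44.1 and 25.6 at D11. The groups were far apart and the normalised score rose by 1.94 ± 0.33 (limma adjusted p = 0.0020). At chr19:3325181-3325935 scores were 1.51, 3.92 and 4.59 at D7 and 33.1, 35.5 and 19.3 at D11, a rise of 2.11. The others were chr5:65782254-65783106 and chr8:97226368-97228408 (1.97 each) and chr5:111082072-111083024 (1.96). Falls were led by chr10:105775153-105775914, with 15.3, 23.7 and 16.2 at D7 and 6.00, 6.12 and 5.45 at D11. Its raw scores fell without overlap while the median of the library was higher at D11, and the change was −2.69 ± 0.33 (limma adjusted p = 0.00019). The next were chr10:54608013-54608722 (−2.27), chr15:12891201-12892066 (−2.09), chr7:18970362-18971086 (−1.88) and chr3:52071893-52072568 (−1.85). In 2 of these the raw scores overlapped and only the normalised ones did not: chr3:52071893-52072568 had 24.0, 32.8 and 30.7 against 34.4, 19.9 and 7.37, and chr10:54608013-54608722 had 9.56, 11.8 and 7.22 against 7.47, 2.17 and 4.16. Scaling set the balance of directions. With median centring 345 shared regions rose and 1058 fell, against 11.6% called among all regions tested. Without scaling 10165 rose and 5 fell, and of all 15204 regions tested 12538 rose and 9 fell (82.5%). With normalisation over shared regions only, 533 rose and 547 fell. The number called was 358, 298 and 370 without D11 vehicle replicates 1, 2 and 3. Of the 10 named regions, chr5:65782254-65783106 lost its call without D11 vehicle replicate 2 (adjusted p = 0.064, limma), chr7:18970362-18971086 lost it without scaling (0.12), and the other 8 kept theirs under the alternatives tried.

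Whether TGFB1 acted differently with irradiation was tested over the 12 D7 libraries. There 17 shared regions had a higher and 36 a lower TGFB1 shift with irradiation, against 0.457% called among all 11601 regions tested (0.147% higher and 0.31% lower). Nearly all of those were the shared regions themselves, and 0 of the 272 others were called. At chr2:25127559-25128305 the D7 non-IR scores were 32.8, 24.9 and 28.2 with vehicle and 34.8, 22.0 and 16.6 with TGFB1, which overlap. In D7 IR they were 7.16, 6.03 and 8.96 against 23.0, 23.3 and 18.97, which do not. The difference between both shifts was 1.93 ± 0.38 (limma interaction adjusted p = 0.0091). At chr12:33905069-33906007 the opposite was measured, with 8.18, 9.50 and 10.7 in D7 IR vehicle and 6.90, 4.22 and 5.20 with TGFB1 beside the D7 non-IR values above, a difference of −2.59 ± 0.56 (adjusted p = 0.019). Both calls were lost without D7 non-IR vehicle replicate 1 (limma adjusted p = 0.072 and 0.081) and without D7 non-IR TGFB1 replicate 3 (0.076 and 0.066), and that of chr12:33905069-33906007 also without D7 non-IR TGFB1 replicate 1 (0.066) or 2 (0.054). The count was 8, 9 and 11 without D7 non-IR vehicle replicates 1, 2 and 3, 17, 21 and 3 without D7 non-IR TGFB1 replicates 1, 2 and 3, 20, 17 and 31 without D7 IR vehicle replicates 1, 2 and 3, and 103 without D7 IR TGFB1 replicate 1. With median centring, 29 were higher and 116 lower, against 1.27% called among all regions tested. Without scaling 1 was higher and 43 lower, against 0.388%.

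Whether the TGFB1 shift differed between D11 and D7 was tested over the 12 irradiated libraries. D7 libraries were collected at the end of the 24 h treatment and D11 libraries days after it, so the D11 shift is one left by earlier treatment. Of the shared regions 181 had a higher and 164 a lower TGFB1 shift at D11, against 3.0% called among all 11544 regions tested (1.58% higher and 1.42% lower). Nearly all of those were the shared regions themselves, and 1 of the 215 others was called. At chr6:142754580-142755551 the D7 IR scores were 8.79, 8.38 and 9.54 with vehicle and 6.12, 4.60 and 5.02 with TGFB1. At D11, as given above, TGFB1 libraries were the higher ones, and the difference between the shifts was 2.93 ± 0.52 (limma interaction adjusted p = 0.0024). The other direction was measured at chr8:97226368-97228408, one of the wider regions with 2041 bp. Its scores were 2.195, 3.39 and 4.83 with vehicle and 8.89, 12.3 and 9.54 with TGFB1 in D7 IR, and 35.6, 32.6 and 22.7 against 13.1, 13.9 and 4.90 at D11. Groups did not overlap on either day and lay in opposite order, and the difference between the shifts was −2.58 ± 0.50 (adjusted p = 0.0061, limma). The 6 regions with the largest differences, 3 in each direction, kept their call under all 20 alternatives tried. The count was 215 without D7 IR vehicle replicate 2, 137, 84 and 173 without D11 vehicle replicates 1, 2 and 3, and 122 and 180 without D11 TGFB1 replicates 2 and 3. With median centring 458 were higher and 156 lower, against 5.34% called among all regions tested. Without scaling 6 were higher and 870 lower, against 7.66%.

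Over the 5 comparisons of groups, 9867 of the shared regions (87.1%) were called in none, 1162 in 1, 277 in 2 and 23 in 3 or more. The comparisons of irradiation and day share the D7 IR vehicle libraries with that of TGFB1 in D7 IR, irradiation shares the D7 non-IR vehicle libraries with TGFB1 in D7 non-IR, and day shares the D11 vehicle libraries with TGFB1 at D11, so a region called in several of these, such as chr12:33905069-33906007 in TGFB1 in D7 non-IR and irradiation, was not found independently. The median SE of a shift lay between 0.24 (TGFB1 at D11) and 0.34 (TGFB1 in D7 IR), and the SD of shifts over the shared regions between 0.34 and 0.50. For TGFB1 at D11, the number of shared regions called fell with their place in the score order, from 154 in the lowest of the 4 groups to 71 in the highest. It rose for day, from 134 to 314. Among all regions tested, 4.73% were called for TGFB1 at D11 and 7.18% for day. Regions outside the shared set were not put in such groups.

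The place of a region among other shared regions was also set beside its shift, a comparison added after the data were seen. For each region, other shared regions within 500 kb on each side were counted, and the regions were put in 4 groups of 2832 or 2833 by that number. The sparsest group had 0 to 5 such neighbours and the densest 12 to 37. Both had nearly the same median score (19.2 and 18.9) and width (804 and 784 bp). For TGFB1 at D11, 137 regions of the sparsest group rose and 33 fell, whereas 9 of the densest group rose and 101 fell. Over all regions tested there, 3.01% were called higher and 1.72% lower. Regions outside the shared set were not grouped by neighbours, so whether the trend is particular to shared regions was not tested. The median shift of the shared regions went from 0.09 in the sparsest group through −0.02 and −0.10 to −0.21 in the densest. For day, which shares the D11 vehicle libraries with TGFB1 at D11 in the opposite sign, the order was opposite, with medians from −0.02 to 0.20, 63 rises and 140 falls in the sparsest group and 206 rises and 74 falls in the densest. For irradiation, which shares the D7 IR vehicle libraries with day in the opposite sign, the medians ran from 0.02 to −0.14. These trends are therefore not independent of each other. For TGFB1 at D7 they ran from −0.02 to 0.01 without irradiation and from −0.01 to 0.06 with it.

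The same can be read per library, as the median deviation of the densest group from the mean of the 18 libraries minus that of the sparsest group. It was 0.12, 0.14 and 0.09 (log2) in D11 vehicle and −0.09, −0.28 and −0.24 in D11 TGFB1. It was 0.02, 0.05 and 0.13 in D7 non-IR vehicle and 0.14, 0.06 and 0.10 with TGFB1. In D7 IR it was −0.14, −0.03 and −0.06 with vehicle and −0.05, 0.03 and 0.01 with TGFB1. Vehicle and TGFB1 libraries did not overlap at D11, nor did irradiated and non-irradiated D7 vehicle libraries or D11 and D7 IR vehicle libraries. The mean differences were −0.33 for TGFB1 at D11, −0.14 for irradiation and 0.20 for day (two-sided exact permutation p = 0.1 each, the smallest possible, and 0.17 adjusted over the 5 comparisons). For TGFB1 at D7 the exact p was 0.4 without irradiation and 0.2 with it. With 250 or 1000 kb on each side, without scaling, or with any 1 library of the comparison left out, the difference lay between −0.38 and −0.29 for TGFB1 at D11, between −0.17 and −0.11 for irradiation and between 0.16 and 0.23 for day. Base composition and read depth, which may differ with local density, were not analysed here, and their part in the result was not tested.

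**Figure D5:**
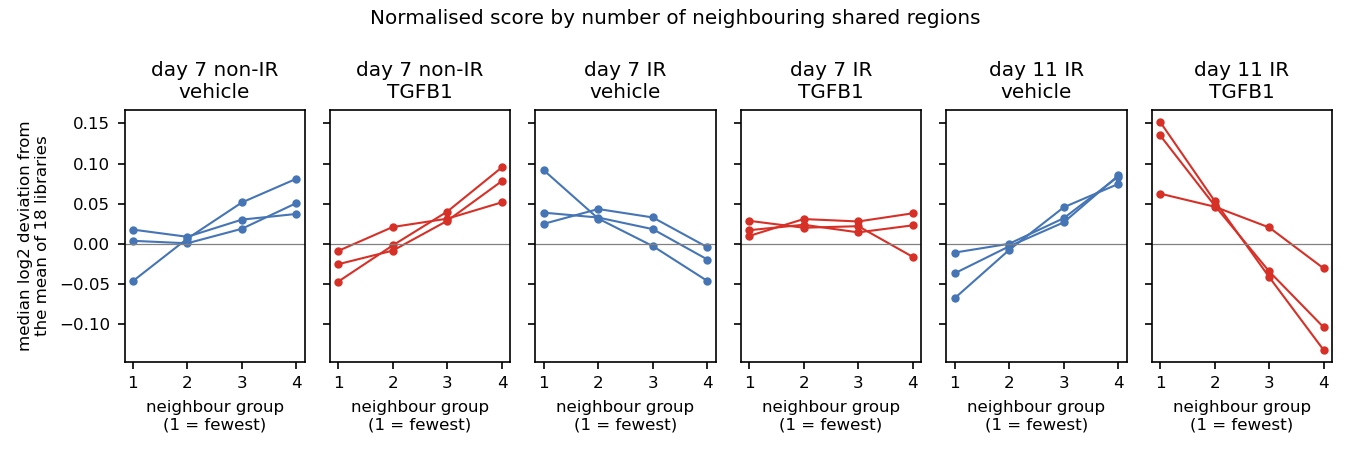
Lines give, for each library of the 6 groups, the median log2 deviation of normalised score from the mean of the 18 libraries in the 4 groups of shared regions by number of neighbours within 500 kb on each side. Lines slope up in D11 vehicle (blue) and down in D11 TGFB1 (red).

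Medians by chromosome followed this order in part. Chromosome 19, one of the denser ones, had the most extreme median shift in 4 of the 5 comparisons: −0.16 for TGFB1 at D11, 0.19 for day, −0.12 for irradiation and 0.14 for TGFB1 in D7 IR. On chromosome 11, the densest, medians were −0.15 for TGFB1 at D11, 0.14 for day and −0.11 for irradiation. On chromosome 14, the sparsest, they were 0.0022, −0.02 and −0.01. Chromosome 15, at 4.26 per Mb below the average of 4.69, nevertheless had −0.15 for TGFB1 at D11 and 0.11 for day, and chromosome 2, at 4.94 per Mb, had −0.02 and 0.02. Per library, the median deviation of a chromosome was most extreme at −0.15 (log2) for chromosome 19 in D11 TGFB1 replicate 2. Near neighbours shared little else: for pairs of shared regions 10 to 100 kb apart (11261 pairs), Pearson's r of the TGFB1 shift at D11 was 0.19, and for pairs under 2 kb apart (169 pairs) it was 0.06. For TGFB1 in D7 non-IR it was 0.02 and −0.15.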

How the data were processed

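ATAC-seq peaks of 18 libraries were used, with the RNA tables of the same 6 groups for a tissue check only. The deposited peak score is the −log10 of a q-value; per the submitters' processing notes, cutadapt 1.9.1, Bowtie2, Picard 2.18.27 and MACS2 2.1.0 are among the tools, and each deposited list holds the peaks of 1 library. For RNA, the authors deposited FPKM tables. The processing notes name the builds mm9, GRCm39 and mm39 without a role. Of these, only mm9 has a chromosome 1 long enough for the last peak there, which ends at 197175936. Coordinates are those of the files, counted from 1. Genes and sequences were not linked, because the gene table at hand is of another build: 2.10% of its gene starts fell in shared regions, against 0.552 and 0.517% after moving them by 1 Mb, under the 5-fold set as the rule.

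Peaks were merged in Python 3.11.15 (pandas 2.3.3), and a region's score in a library was its highest peak score. Log2 scores were quantile-normalised over regions with a peak in every library compared, and tested two-sided with limma 3.58.1 (R 4.3.3; trend, robust empirical Bayes), with Benjamini-Hochberg adjustment over all regions tested and calls at 0.05. A shift is the difference of mean normalised log2 scores. The fit was tested on simulated data with known changes. Library measures used exact permutation tests. Regions are named by rule: the 10 highest by median percentile, per comparison the 5 largest rises and falls called without overlap (3 each way for interactions), those called alike in all 3 TGFB1 comparisons, the 3 widest, the 3 on each side of the edge, and the 5 steadiest and 5 least steady, of which some are given. Alternatives were median centring, no scaling, summed scores, shared regions only, all 18 libraries in 1 fit, a 1.5-fold minimum, q at most 0.01, a replicate block and leaving out each library. No column of a sample was left unmapped (0). The shared regions, lists and tests were chosen with earlier results of these data known. Neighbour counts were added after the data were seen.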

Additional observations from a re-analysis of the deposited data

Results flagged for a closer look

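The TGFB1 shift differed between irradiated and non-irradiated D7 organoids in 53 shared regions, by limma's interaction term with Benjamini-Hochberg adjustment. It was higher with irradiation at chr11:80196397-80197131 by 2.21 (log2, adjusted p = 0.038; shifts of −0.18 without and 2.01 with irradiation), at chr2:25127559-25128305 by 1.93 (−0.30 and 1.66) and at chr3:61147801-61148576 by 1.86 (−0.01 and 1.87). It was lower at chr12:33905069-33906007, with a difference of −2.59 (1.87 and −0.83), at chr4:46558192-46558962, with −2.34 (0.60 and −1.74), and at chr17:31413713-31414689, with −2.27 (1.25 and −1.04). All 6 lost their call when at least 1 library was left out.

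Between irradiated organoids at D7 and at D11, the same test of the difference found 345 shared regions. The TGFB1 shift was higher at D11 at chr6:142754580-142755551 by 2.93 (−0.76 at D7, 2.07 at D11), at chr3:154359179-154360102 by 2.86 (−0.57 and 2.10) and at chr12:71447981-71448762 by 2.77 (−1.19 and 1.47). It was lower at D11 at chr15:78971359-78972101, with a difference of −2.60 (1.65 and −1.11), at chr8:97226368-97228408, with −2.58 (1.61 and −1.01), and at chr5:115776707-115777484, with −2.34 (1.72 and −0.68).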

How the results depend on the processing

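The set numbered 11276 with only peaks at q 0.01 or below, 11321 with peaks up to 100 bp apart merged, 11329 with an overlap of at least 300 bp (every peak lies wholly in its region) and 11329 to 11860 when 1 library was left out. Counts of called regions within 1.5 times of those reported are not repeated here. With median centring, 688 (TGFB1 in D7 IR), 1403 (day), 145 (TGFB1 by irradiation) and 614 (TGFB1 by day) shared regions were called. The shares over all regions tested were 5.83, 11.6, 1.27 and 5.34%. Without scaling the counts were 1823 (TGFB1 at D11), 4685 (irradiation), 10170 (day) and 876 (TGFB1 by day). Their shares over all regions were 13.1, 35.4, 82.5 and 7.66%. With summed scores the counts were 5 and 150 (TGFB1 at D7 without and with irradiation), 19 (irradiation), 20 (TGFB1 by irradiation) and 226 (TGFB1 by day). Here the shares were 0.0512, 1.27, 0.179, 0.181 and 1.97%. With all 18 libraries in 1 fit, where only shared regions were tested, the counts were 6, 889 and 303 (TGFB1 at D7 without irradiation, at D7 with it and at D11) and 627 (TGFB1 by day). The cause was not tested.

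The replicate block gave 42 and 195 for TGFB1 at D7 without and with irradiation, against 0.387 and 1.65% of all regions tested. It moved no other count by over 1.5 times. Whether same-numbered libraries share a culture or mouse is not known from the labels. Their deviations from the group means correlated at −0.0375 to 0.031 (45 pairs, 0 over 0.1), and those of other pairs at −0.0523 to 0.0375 (90 pairs). With 3 libraries per group, this cannot settle the question.

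Leaving out 1 library gave counts of 0 to 18, 88 to 305 and 131 to 618 (TGFB1 in the same order), 11 to 47 (irradiation), 298 to 850 (day), 3 to 103 (TGFB1 by irradiation) and 84 to 362 (TGFB1 by day). The TGFB1 difference in median score ranged from −1.16 to 1.77 in D7 non-IR, reversed to −1.16 without TGFB1 replicate 1. In D7 IR it ranged from −1.06 to 0.618, reversed to 0.618 without vehicle replicate 2 and 0.411 without TGFB1 replicate 3. The difference in peaks per shared region ranged from −0.0333 to 0.0144 for TGFB1 in D7 IR and from −0.0370 to 0.0161 for day, reversed in both to the highest value without D7 IR vehicle replicate 3. Fewer libraries also mean fewer degrees of freedom. Of 64 named calls, 31 held under all alternatives tried and 0 reversed.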
